A study of Mus musculus with 10 samples.

Results

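A set of 10 genes that mark lymphatic valves, of 42520 genes joined over the plates, were followed in lymphatic endothelial cells (LECs) of mouse ear skin: Cldn11, Gdf10, Gjd3, Slc41a1, Neo1, Fibin, Sbspon, Irx3, Irx5, and Net1. The first 5 are the markers that the study itself used for its valve cluster, chosen on these wells. The other 5 were added because they were high in the same cells of these data, so the valve enrichment of all 10 genes is what chose them and is given only as a description. That Cldn11 is lower after the double deletion was also known when the genes were chosen. All 10 genes were found in every plate table and in both droplet matrices.

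Lymphatic valves are paired leaflets inside collecting vessels that stop lymph from flowing back. Their endothelial cells differ from those of the surrounding vessel wall by high Prox1 and Foxc2, by strong junctions, and by a matrix core on which the leaflet is anchored. The angiopoietin receptor Tie2 (gene Tek) and the homologous Tie1 are receptor tyrosine kinases of endothelial cells, and Ang2 is a secreted ligand of Tie2.

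The data hold a plate and a droplet experiment. In the first, single LECs sorted for CD31 and podoplanin were sequenced by Smart-seq in 8 plates, with 2 plates for each of 4 genotypes. Tie1 iΔLEC mice (Tie1 deletion) had Tie1 fl/fl mice as controls, and Tie1 Tie2 iΔLEC mice (double deletion) had controls of the genotype Tie1 Tie2 fl/fl. The iΔLEC pups carried the tamoxifen-inducible Prox1CreERT2 driver, which is active in LECs and in other Prox1-expressing cells, and the fl/fl pups were Cre-negative controls with the same floxed alleles. All pups, controls included, received 62.5 μg of 4-hydroxytamoxifen from P1 to P5, the only age the labels give. Both first plates of the Tie1 strain came from females and the other 6 from males. In the second, wild-type C57Bl/6j males received 20 mg/kg of Ang2 blocking antibody (Ang2 Ab) or control IgG from P16 to P21, and CD31-sorted endothelial cells were run on the 10x platform, 1 library each. The labels do not say whether the plates hold different animals, so p-values measure only the spread between plates.

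Of 3048 wells, 3028 were clustered without the 10 genes, Tie1, and Tek. Clusters with markers of other cells held 287 wells and were set aside. That left 2741 LEC wells (303 to 366 per plate, 67057073 to 104619391 counts). The larger removed cluster (262 wells) detected Prox1 in 96.2% of wells, at a median depth of 0.128 of the plate median. Kept wells were 303 of 378 and 347 of 384 in Tie1 fl/fl and 348 of 378 and 348 of 376 in Tie1 iΔLEC. They were 334 of 384 and 338 of 378 in Tie1 Tie2 fl/fl and 366 of 372 and 357 of 378 in Tie1 Tie2 iΔLEC. The removed part was thus larger in controls, which enters the shares of LEC wells below. Tie1 checked the labels over all LEC wells. In the 4 control plates it was at 2355 to 2744 CPM (counts per 1000000 counts of the class and plate). In the 4 deleted plates it was at 479 to 709 CPM. Tek was at 228 to 325 CPM in the controls, 222 and 241 CPM in Tie1 iΔLEC, and 30.9 and 55.4 CPM in Tie1 Tie2 iΔLEC. The tables came in 2 layouts that differ in detected genes per well (medians of 3692.5 to 5111 against 5946.5 to 7023), and each genotype has 1 plate of each.

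The valve genes have different jobs. Irx3 and Irx5 are Iroquois homeobox transcription factors. Cldn11 is a claudin of tight junctions and Gjd3 a connexin of gap junctions. Gdf10 is a secreted ligand of the TGF-β family, Fibin a small secreted protein, and Sbspon a secreted matrix protein with thrombospondin and somatomedin B domains. Neo1 encodes neogenin, a receptor for netrins and repulsive guidance molecules, Slc41a1 a magnesium transporter, and Net1 a guanine nucleotide exchange factor for RhoA.

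Promoter sequence is shown for 3 genes that changed in different directions below, Cldn11 and Net1, which fell, and Neo1, which rose. The 250 bases before the RefSeq start (GRCm38.p6) are printed 5′ to 3′ on the gene's strand, all in lower case because neither motif searched was present. Cldn11 lies at chr3:31149670-31149919 on the plus strand, Net1 at chr13:3918221-3918470 on the minus strand, and Neo1 at chr9:59036442-59036691 on the minus strand, each upstream of the gene body.
Cldn11: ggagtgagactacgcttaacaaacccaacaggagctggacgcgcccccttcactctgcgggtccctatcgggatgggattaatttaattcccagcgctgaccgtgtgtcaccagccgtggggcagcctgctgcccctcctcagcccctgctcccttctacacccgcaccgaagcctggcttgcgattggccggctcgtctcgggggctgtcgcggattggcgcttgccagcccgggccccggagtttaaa
Net1: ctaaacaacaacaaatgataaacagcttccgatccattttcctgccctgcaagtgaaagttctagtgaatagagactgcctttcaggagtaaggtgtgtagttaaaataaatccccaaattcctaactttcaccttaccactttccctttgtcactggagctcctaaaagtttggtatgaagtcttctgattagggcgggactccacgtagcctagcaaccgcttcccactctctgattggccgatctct
Neo1: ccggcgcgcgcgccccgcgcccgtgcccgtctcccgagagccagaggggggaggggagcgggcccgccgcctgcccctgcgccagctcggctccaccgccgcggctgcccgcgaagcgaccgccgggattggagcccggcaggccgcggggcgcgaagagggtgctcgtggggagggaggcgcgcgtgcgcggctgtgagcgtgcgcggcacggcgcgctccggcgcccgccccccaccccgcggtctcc

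The GC content of these windows was 63.6% for Cldn11, 44% for Net1, and 83.2% for Neo1, against a median of 52.4% over all promoters. A forkhead motif (GTAAACA) and a GATA motif (AGATAA) were searched as exact letters on both strands, without their variants. They were present in none of the 8 windows of the 7 valve genes with an entry (Irx5, Gjd3, and Sbspon are named only), and in 3.17% and 9.97% of 32536 promoters of the same length. No match says only that these letters are not in these windows.

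Clustering of the wells of all 8 plates, without the 10 genes, gave 2 clusters in which at least 5 of them were raised. Cluster A held 234 wells, was led by Slc38a11, Ednrb, Odc1, Fxyd2, Tub, and Plat, and had 10 of 10 genes raised. Cluster B held 84 wells, was led by Hbegf, Pygm, Hapln2, Fermt3, Gm37509, and the B-cell gene Cd79a, and had 7 of 10 raised. Together these 318 wells are called valve-like. In the controls Prox1 was higher in both clusters than in other LECs. Foxc2 was higher in B, while in A its means lay on either side of those in other LECs. Means in Tie1 Tie2 fl/fl and Tie1 fl/fl follow for A, B, and other LECs. Foxc2 read 279 and 344, 981 and 1197, and 306 and 316 CPM. Itga9, also known from valves, read 233 and 139, 535 and 357, and 230 and 223 CPM. Prox1 read 1721 and 1475, 1986 and 1586, and 718 and 607 CPM. Other genes known from valve development went both ways in A. Gata2 (615 and 784 against 309 and 267 CPM in other LECs) and Nfatc1 (845 and 1459 against 465 and 592 CPM) were higher. Gja4 (694 and 986 against 1001 and 1297 CPM) and Efnb2 (33.8 and 34.6 against 70.6 and 74.5 CPM) were lower.

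Pooled over the 4 control plates, valve-like wells held between 65.5% (Cldn11) and 87.5% (Irx5) of each gene's LEC reads. Irx3 was read mostly in cluster A, at 85.3 CPM there and 0.61 CPM in cluster B, a ratio of 139.8. Irx5 (73.4 against 8.97 CPM), Neo1 (967 against 202 CPM), and Slc41a1 (4409 against 1219 CPM) were also higher in cluster A. The secreted factors leaned to cluster B: Fibin was at 125 CPM in A and 894 CPM in B, Sbspon at 237 and 590.0 CPM, and Gdf10 at 932 and 1791 CPM. Cldn11 (1717 and 2528 CPM), Net1 (998 and 1230.5 CPM), and Gjd3 (718 and 735 CPM) were high in both. Per kilobase of exon, Cldn11 was the most abundant of the 10 in valve-like wells of the control plates, with a median of 1081 CPM per kilobase, followed by Gjd3 (898) and Slc41a1 (644), whose ranges overlapped (738 to 921 and 436 to 844). Irx3 (17.9) and Irx5 (14) were the lowest, and their ranges overlapped as well (4.56 to 34.7 and 6.5 to 23.5). Some genes overlap neighbours. An antisense transcript overlaps Neo1 and another Irx3, and Gm37509 lies on the strand opposite to Sbspon, so that these reads cannot be told apart if strand was not used. Net1 overlaps the unclassified transcript Gm47813 on its own strand, whose reads cannot be told apart in either case.

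The genes closest to the 10 across 1322 control LEC wells were Gm37509 (r = 0.57 with the mean of the 10, log scale, centred within plates, a value that may hold reads shared with Sbspon), Ccdc141 (0.48), Odc1 (0.47), Slc29a4 (0.45), Nav1 (0.45), Cystm1 (0.42), Fam20c (0.42), and Hbegf (0.39). Odc1 is the rate-limiting enzyme of polyamine synthesis, and Hbegf an EGF receptor ligand. Over the wells of Tie1 Tie2 iΔLEC the same correlations were 0.29, 0.14, 0.33, 0.14, 0.26, 0.11, 0.093, and -0.002. In the 10x LECs, which share no library with the plates, 7 of these 8 genes were in the matrices, with r from 0.53 to 0.59 over both libraries. These are descriptions over wells that share libraries and depth.

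Over all LECs, the double deletion lowered 5 of the 10 genes past the threshold (edgeR adjusted p under 0.05) and raised none past it, while 1.13% of all genes tested were called. The called genes were Cldn11, Net1, Sbspon, Irx3, and Irx5. The Tie1 deletion called none of the 10, in a comparison that called 0% of all genes in all LECs, 0% in valve-like wells, and 0% in other LECs by edgeR (866, 749, and 861 genes had an unadjusted p under 0.05, and DESeq2 called 174, 156, and 163).

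**Figure D1:**
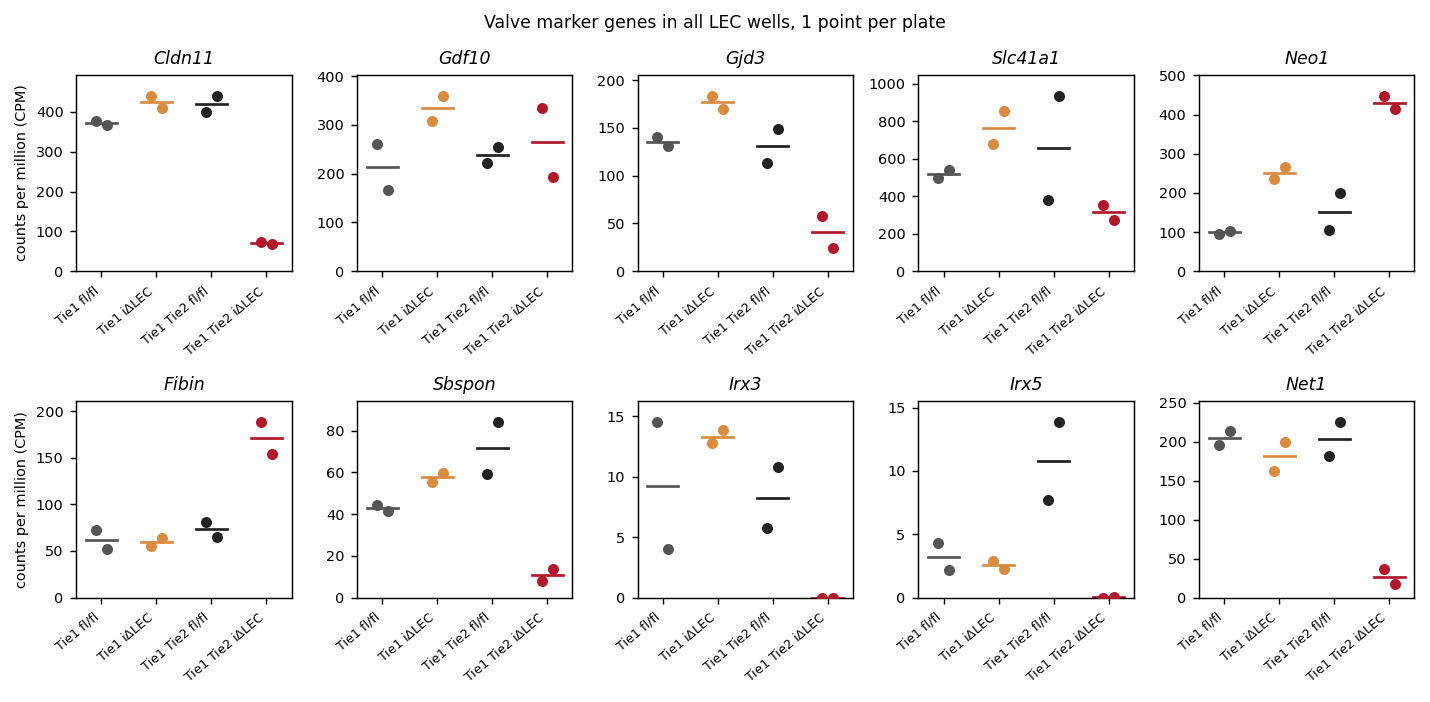
Level of each valve gene in all LEC wells, in CPM (vertical axes start at 0 and differ by gene), with 1 point per plate and a bar at the mean of 2 plates. Cldn11, Net1, and Sbspon are lowest in both Tie1 Tie2 iΔLEC plates, Irx3 and Irx5 are at or near 0 there, and Neo1 and Fibin are highest there.

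Cldn11 read 399 and 439 CPM in Tie1 Tie2 fl/fl against 73.7 and 68.7 CPM with the double deletion. In the Tie1 strain it was at 377 and 367 CPM in controls and at 441 and 410.1 CPM after deletion. The double deletion gave a log2 fold change of -2.54 ± 0.20 (SE, 2 plates against 2, edgeR adjusted p = 0.00178), and the Tie1 deletion one of 0.21 ± 0.19 (adjusted p = 1). All of the other 6 plates lay above both double-deleted plates, a separation that was not counted over all genes. The difference between the deletions was itself past the threshold (-2.75, adjusted p = 0.0148), in a comparison that called 0.131% of all genes, although only 2 of 8 fits that leave out a plate kept that call (adjusted p up to 0.123) and the fit with the replicate number as a block did not (0.0647).

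Net1 fell from 182 and 226 CPM to 36.2 and 17.4 CPM (log2 fold change -2.89 ± 0.40, edgeR adjusted p = 0.0141). Sbspon fell from 59.3 and 84.2 CPM to 7.8 and 13.6 CPM (-2.74 ± 0.34, adjusted p = 0.0082). For neither gene do the double-deleted plates overlap any other plate, which was not counted over all genes. In the Tie1 strain Net1 was at 195 and 213 CPM in controls and at 163 and 200.3 CPM after deletion, and Sbspon at 44.5 and 41.6 CPM against 55.4 and 59.8 CPM. Leaving out a plate ended the Net1 call in 2 of 8 fits (adjusted p up to 0.0685) and the Sbspon call in 1 of 8 (0.0556).

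The Iroquois genes were at or near 0 counts after the double deletion. Irx3 read 5.75 and 10.8 CPM in Tie1 Tie2 fl/fl and had 0 counts in both double-deleted plates. Set at a floor of 3 counts over the deleted group, Irx3 was 484-fold lower (edgeR adjusted p = 0.00766). Irx5 was at 7.69 and 13.9 CPM in the controls and had 1 count in all in the deleted plates. That is a ratio of 0.000528 (95% counting interval 1.34e-05 to 0.00295, edgeR adjusted p = 0.00465). The interval and the floor treat reads pooled over plates as independent. They leave out the spread between wells and between plates. In the Tie1 strain both genes were read in every plate, Irx3 at 14.6 and 3.98 CPM in controls and 12.8 and 13.9 CPM after deletion, and Irx5 at 4.28 and 2.2 CPM and 2.88 and 2.27 CPM. These counts come from few wells: when wells were thinned to 50000 counts, 3 or 4 wells of each Tie1 Tie2 fl/fl plate held 10 or more counts of Irx3, and 4 wells of each held as many of Irx5. The differences between the deletions passed the threshold for Irx3 and Irx5 (adjusted p = 0.0443 and 0.0413) but in 0 of 8 fits that leave out a plate, and not with the replicate number as a block (0.19 and 0.137). Irx3 and Irx5 lie 555.6 kb apart on chromosome 8 (GRCm38, GENCODE vM21). Crnde, a transcript 1.505 kb from Irx5, was at 25.4 and 106 CPM in the control cluster A wells and at 0 in those of both deleted plates.

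Neo1 went the other way. With the double deletion it read 448 and 413 CPM against 105 and 199 CPM in Tie1 Tie2 fl/fl. In the Tie1 strain it was at 95.7 and 104 CPM in controls and 236 and 266 CPM after deletion. In each strain both deleted plates lay above both controls, a separation that was not counted over all genes. Neither deletion passed the threshold alone in all LECs (1.35 ± 0.31 on the log2 scale with adjusted p = 0.869, and 1.52 ± 0.31 with adjusted p = 0.0751). The average of both deletions did (1.43 ± 0.22, edgeR adjusted p = 0.029), in a comparison that called 0.92% of all genes, but in only 1 of 8 fits that leave out a plate (adjusted p up to 0.103). That average also called Cldn11, Net1, Irx3, and Irx5, all lower, in 5, 2, 4, and 6 of the 8 fits that leave out a plate (adjusted p up to 0.0661, 0.201, 0.106, and 0.0676), while the Tie1 deletion alone gave 0.21 for Cldn11 and -0.15 for Net1 on the log2 scale. With the replicate number as a block the average no longer passed for Neo1 (adjusted p = 0.0684), Net1 (0.0981), or Irx3 (0.0946).

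For the remaining 4 genes no call was made over all LECs. Fibin was at 81.1 and 65.1 CPM in Tie1 Tie2 fl/fl and at 188 and 154 CPM in Tie1 Tie2 iΔLEC (adjusted p = 0.1). Gjd3 was at 114 and 148 CPM against 58.3 and 24.8 CPM (adjusted p = 0.159). Slc41a1 was at 382 and 937 CPM against 353 and 275 CPM, and Gdf10 at 221 and 255 CPM against 336 and 193 CPM, a gene whose plates overlap. The median log2 fold change of the 10 genes with the double deletion was -2.08, also with Irx3 and Irx5 set at the floor of 3 counts, beside 0.0029 for all genes tested.

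Losses per cell and losses of cells were looked at in 3 ways. Wells of the same cluster were compared, cluster shares were weighed against levels within clusters, and the share of wells with each transcript was read. The third way cannot separate them, because less RNA per cell also takes wells below a count limit. Each plate held 378 or 384 wells of sorted cells, so their make-up was read, not the number of cells in the skin. In sums over wells, fewer cells of a kind and less RNA per cell cannot be told apart.

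Within valve-like wells the double deletion called 2 of the 10 genes, Cldn11 and Net1, both lower, against 0.0632% of all genes. Both are 2 of only 9 genes called there. Tie1 read 3248 to 3742 CPM in valve-like wells of the control plates. It read 829 to 1258 CPM in those of Tie1 iΔLEC and 645 to 1214 CPM in those of Tie1 Tie2 iΔLEC. In cluster B it read 386 to 2024 CPM in Tie1 iΔLEC and 1615 CPM in the single double-deleted well, against 3756 to 4241 CPM in controls. The part of wells that kept Tie1 was not tested. Nearly all double-deleted valve-like wells were in cluster A (67 of 68 wells), whereas the controls had 60 wells in A and 31 in B. In cluster A, Cldn11 read 1683 and 1641 CPM in Tie1 Tie2 fl/fl against 339 and 179.8 CPM with the double deletion. Net1 was at 793 and 992 CPM against 70.7 and 24.7 CPM. Neither gene's groups overlap, which was not counted over all genes. The fold changes over both clusters were -2.69 ± 0.26 for Cldn11 (edgeR adjusted p = 0.00369) and -4.05 ± 0.36 for Net1 (adjusted p = 0.00249), and both stayed past the threshold in 8 of 8 fits that leave out a plate. With cluster A wells only, a choice made after seeing the data, they were -2.71 and -4.24 with adjusted p = 0.049 for both.

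Other valve genes read lower in cluster A without passing the threshold. Adjusted p-values are given over valve-like wells and then over cluster A wells only. Slc41a1 was at 2983 and 5519.8 CPM in controls and at 887 and 860.3 CPM after the double deletion (adjusted p = 0.14 and 0.122). Gjd3 was at 615 and 669.6 CPM against 281 and 73.1 CPM (adjusted p = 0.277 and 0.741), and Sbspon at 179.9 and 274 CPM against 55.3 and 37 CPM (adjusted p = 0.0709 and 0.326). Groups do not overlap for any of these, but how many of all genes separate in this way by CPM was not counted. Irx3 (21.4 and 92.9 CPM) and Irx5 (75.2 and 109.8 CPM) were at 0 counts in both deleted plates (edgeR adjusted p = 0.082 and 0.0619 for Irx3, and 0.0632 and 0.0579 for Irx5). Set at a floor of 3 counts, they were 393-fold and 578-fold lower than the control cluster A wells. As above, that floor treats pooled reads as independent and leaves out the spread between wells and between plates. Neo1 was at 615 and 1337 CPM against 1287 and 1223 CPM, and Gdf10 at 1081 and 834 CPM against 1303 and 590.4 CPM, both with overlapping groups. Fibin read 320.4 and 80.3 CPM against 267 and 93.1 CPM in cluster A, which overlap. Over all valve-like wells it read 530 and 356 CPM against 267 and 151 CPM (log2 fold change -1.06 ± 0.40, adjusted p = 0.6). The average of both deletions called the same share, 0.0632% of genes, and of the 10 genes again Cldn11 (adjusted p = 0.0308, kept in 3 of 8 fits that leave out a plate) and Net1 (adjusted p = 0.00786, kept in 7 of 8). The Cldn11 average did not pass with the block (0.0785), and neither passed with cluster A wells only (0.112 and 0.0917). Summed fibroblast markers (5 genes) in cluster A read 278 and 68.3 CPM in Tie1 Tie2 fl/fl against 0.414 and 9.53 CPM after deletion, where Col1a2, Dcn, and Pdgfra were at 0 in the first plate, and 36.1 and 53.3 CPM in Tie1 fl/fl. The part of these transcripts in the changes above was not tested.

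Outside the valve-like clusters other genes were called. The double deletion called 3 of the 10 genes in other LECs, against 1.14% of all genes: Fibin and Neo1 were higher and Cldn11 lower. Fibin went from 14.4 and 11.3 CPM to 179 and 155 CPM (log2 fold change 3.70 ± 0.38, edgeR adjusted p = 0.004, kept in 8 of 8 fits that leave out a plate). In the Tie1 strain Fibin was at 28.1 and 14.1 CPM against 15.5 and 16.4 CPM. Neo1 went from 51.1 and 57.3 CPM to 347 and 311 CPM (2.60 ± 0.26, adjusted p = 0.0038, kept in 7 of 8 fits), and in the Tie1 strain from 34.7 and 43.2 CPM to 129 and 123 CPM (1.70 ± 0.25, adjusted p = 0.32). The Neo1 groups do not overlap in either strain, which was not counted over all genes. The average of both deletions in other LECs called 0.864% of genes, among them Neo1 (2.15 ± 0.18, adjusted p = 0.00231, kept in 8 of 8 fits), Fibin (adjusted p = 0.0237, kept in 1 of 8), and Cldn11 (adjusted p = 0.0345, kept in 0 of 8). With the block the Fibin and Cldn11 averages did not pass (0.0662 and 0.0663).

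The levels in single clusters of other LECs were as follows. Among the 10 other LEC clusters, Neo1 ranged from 6.75 to 131 CPM in Tie1 Tie2 fl/fl and from 118 to 568 CPM in Tie1 Tie2 iΔLEC. Fibin ranged from 1.21 to 44.7 CPM and from 21.3 to 285 CPM. Cldn11 fell in other LECs from 142 and 168 CPM to 41.6 and 43.6 CPM (-1.87 ± 0.24, adjusted p = 0.0106, kept in 5 of 8 fits). Gdf10 was at 51.6 and 66.3 CPM against 218 and 131 CPM (adjusted p = 0.146). In Tie1 Tie2 iΔLEC 12.7% of Fibin reads and 32% of Neo1 reads lay in valve-like wells, against 84.9% and 70.1% in Tie1 Tie2 fl/fl. Summed blood vascular markers (7 genes, none at 0) in other LECs read 524 and 637 CPM in Tie1 Tie2 fl/fl against 1049 and 975 CPM after the double deletion, and their part in these rises was not tested.

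**Figure D2:**
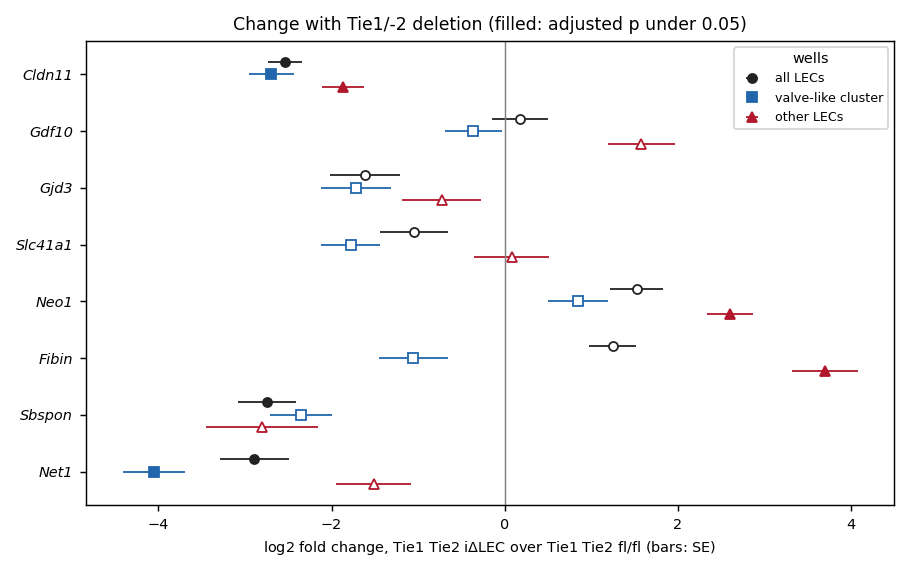
Log2 fold change of Tie1 Tie2 iΔLEC over Tie1 Tie2 fl/fl (horizontal axis, bars are standard errors, 2 plates per group) for 8 valve genes in all LECs (circles), valve-like wells (squares), and other LECs (triangles), filled where the edgeR adjusted p is under 0.05. Cldn11 lies left of 0 in all 3 sets, and Neo1 and Fibin lie furthest to the right in other LECs. Irx3 and Irx5 are not drawn because their fitted folds against 0 or 1 counts are no measurement.

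The share of valve-like wells moved with the way cells were clustered. Valve-like wells made up 12.6% and 14.5% of LECs in the Tie1 Tie2 fl/fl plates, 10.4% and 8.4% in Tie1 Tie2 iΔLEC, 9.24% and 8.65% in Tie1 fl/fl, and 14.7% and 14.4% in Tie1 iΔLEC. The double deletion thus gave a difference of -4.14 percentage points and the Tie1 deletion one of 5.57 (exact permutation test, two-sided, p = 0.333 for each, the smallest that 2 plates against 2 allow). Over both strains the difference was 0.713 points (exact permutation within strains, p = 0.778), and the difference between the deletions was -9.71 points (exact permutation p = 0.0556, the smallest possible).

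That share rested on cluster B and on the genes used for clustering, which themselves differed: Slc38a11, the leading gene of cluster A, read 51 and 78.4 CPM in its Tie1 Tie2 fl/fl wells and 0.552 and 26 CPM with the double deletion. Cluster A alone was 0.329 points higher after the double deletion. Cluster B went from 15 and 16 wells to 0 and 1 well, a difference of -4.47 points (these splits were made after seeing the data). When the 225 genes called with the double deletion were also left out of the clustering, the difference was 0.159 points, and when genes were scaled over all plates and not within each plate it was -12.2 points. Of the 67 cluster A wells of Tie1 Tie2 iΔLEC, 54 were still valve-like in the first of these and 13 in the second. In the first, wells that had been other LECs also became valve-like and enter the 0.159 points. These were 68 of 655 in Tie1 Tie2 iΔLEC and 28 of 581 in Tie1 Tie2 fl/fl.

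**Figure D3:**
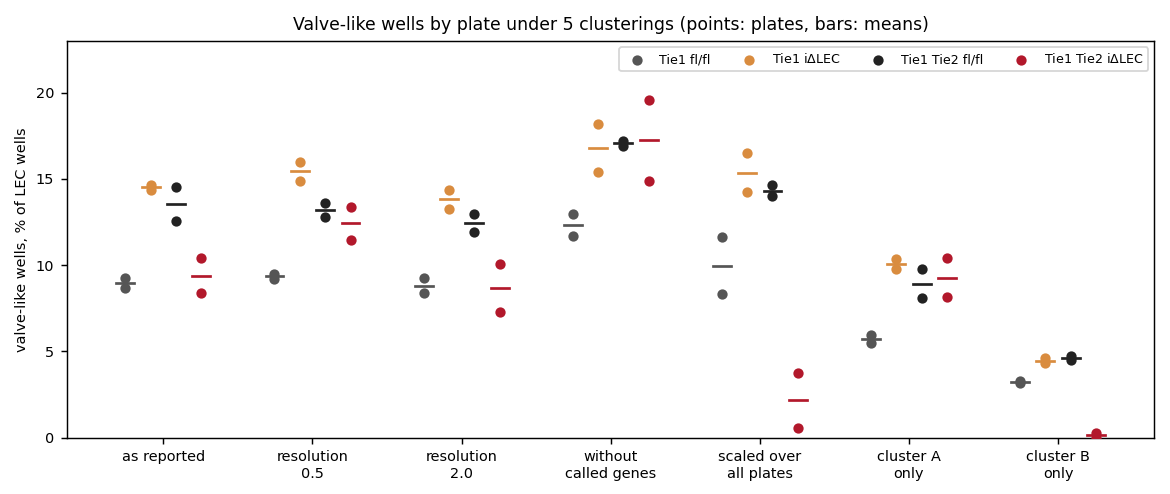
Valve-like wells as a percentage of LEC wells (vertical axis, from 0) in each plate under 5 clusterings and for clusters A and B of the reported one, with points for plates and bars for means of 2 plates. Tie1 Tie2 iΔLEC lies below Tie1 Tie2 fl/fl under the reported clustering, level with it when called genes are left out, and far below it when genes are scaled over all plates.

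Swapping cluster shares and levels between genotypes was done under the reported clustering only, and the 2 parts depend on that clustering. With genes scaled over all plates, only 13 of the 67 cluster A wells of Tie1 Tie2 iΔLEC stayed valve-like. Cluster shares here are shares of LEC counts, not of wells, so they also reflect counts per well. Cluster A held 9.12% of counts in Tie1 Tie2 fl/fl and 10.5% in Tie1 Tie2 iΔLEC, and cluster B 5.28% and 0.35%. With the levels of Tie1 Tie2 fl/fl and the cluster shares of Tie1 Tie2 iΔLEC, Cldn11 would be at 0.764 of its control level. With control shares and deleted levels it would be at 0.39, and it was observed at 0.168. For Net1 the 3 ratios were 0.77, 0.236, and 0.12. These level ratios take cluster B from 1 double-deleted well, at 1987 CPM for Cldn11 and 508 CPM for Net1. Shares and levels are therefore not ranked against each other. For Sbspon the shares gave 0.602, and no level term is given, since its cluster B part rests on 1 double-deleted well of 1223 CPM. Sbspon was observed at 0.156, and it read 9.04 and 26.9 CPM against 2.04 and 3.13 CPM in other LECs, beside the lower levels in cluster A above. The single well likewise sets the cluster B level for the other genes. Much of the level terms of Cldn11, Net1, and Gjd3 comes from it. For Slc41a1 the shares gave 1.02 and the levels 0.557, for Gjd3 0.781 and 0.652, and for Neo1 1.03 and 3.11. Fibin would be at 0.447 from shares and at 3.01 from levels.

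The share of wells that detect a transcript was read at 2 limits. With 1 count as detection, wells thinned to 50000 counts detected Cldn11 in 61.9% and 82.4% of Tie1 Tie2 fl/fl wells and in 11.7% and 18.8% of Tie1 Tie2 iΔLEC wells, but the Tie1 strain gave 85.3% and 55.8% in controls and 91.9% and 38.8% after deletion, a split that followed the table layout. At that limit 6 of the 10 genes were detected in a smaller share of wells in both double-deleted plates than in both controls (22.5% of all genes were) and 2 in a larger share (9.76% of all genes). For the Tie1 deletion it was 0 of 10 smaller (4.48% of all genes) and 0 larger (7.54%). A limit of 10 counts, added after seeing the data, was used for what follows.

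With at least 10 counts, Cldn11 was detected in 24.8% and 29.3% of Tie1 Tie2 fl/fl wells and in 8.19% and 8.8% of Tie1 Tie2 iΔLEC wells. Its mean in detecting wells was 73.1 counts in controls and 41.6 counts after deletion. Both the share of wells and the counts in those wells were thus lower. Net1 went from 16.5% to 4.1% of wells (means of 2 plates) and from 52 to 24.1 counts in them. Slc41a1 had shares of 36.5% and 39.5%, and its counts in detecting wells went from 88.2 to 35.9. At 1 count its share was 76.2% and 64.4%, so the direction of its share depends on the limit. Neo1 had 12% and 44.9% of wells and 55 and 47.4 counts in them. At 1 count its share also differed, at 34.9% and 65.9%, while its counts in detecting wells were 21.4 and 33.5, the other direction. Fibin went from 7.17% to 20.8% of wells, Gjd3 from 15.1% to 5.71%, and Sbspon from 8.87% to 1.17%. With the double deletion 6 of the 10 genes had a smaller share in both deleted plates (15.9% of all genes did) and 3, Gdf10, Neo1, and Fibin, a larger one (26.7% of all genes). With the Tie1 deletion 0 of 10 were smaller (11.2% of all genes) and 4 larger (22.8% of all genes), which were Gdf10, Gjd3, Neo1, and Sbspon. Neo1 had 8.91% and 20.1% of wells there.

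**Figure D4:**
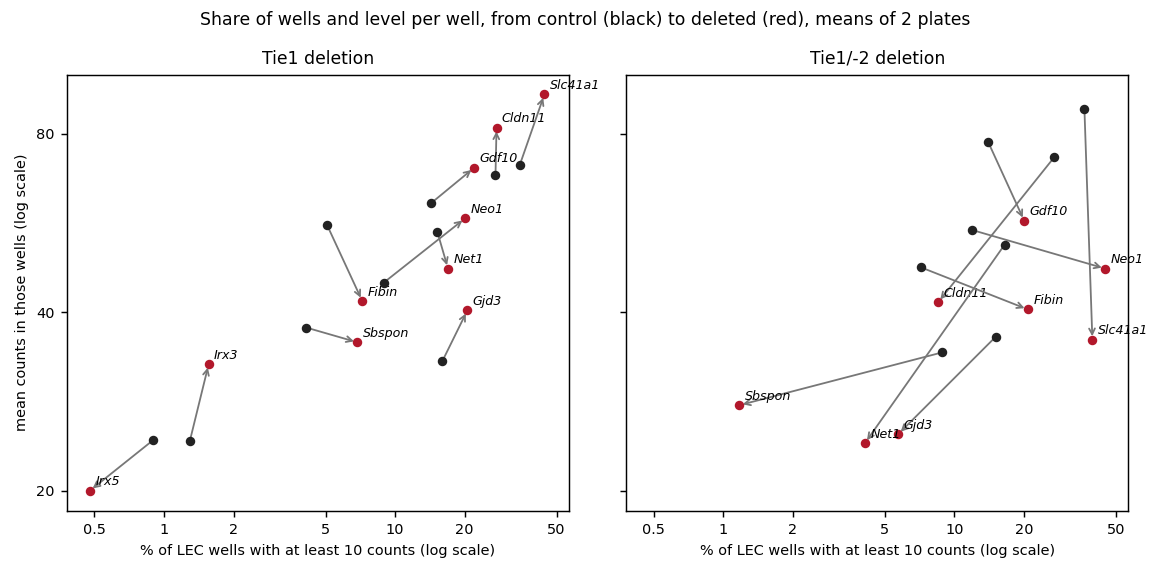
Share of LEC wells with at least 10 counts of a gene (horizontal axis, log scale) against its mean counts in those wells (vertical axis, log scale) in wells thinned to 50000 counts, with an arrow from control (black) to deleted (red), means of 2 plates. With the double deletion Cldn11 and Net1 move left and down, Slc41a1 down, and Neo1 right. Irx3 and Irx5 are absent from the right panel because no double-deleted well reached 10 counts.

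Inside cluster A the same limit was applied. Cldn11 reached 10 counts in 88.9% and 83.9% of cluster A wells of Tie1 Tie2 fl/fl and in 34.2% and 24.1% of those of Tie1 Tie2 iΔLEC. Net1 reached it in 51.9% and 71% against 10.5% and 6.9%. Slc41a1 was still found in 77.8% and 87.1% against 78.9% and 75.9%, at 222 and 329 counts against 52.5 and 51.5 counts in those wells. Cldn11 and Net1 thus had fewer wells above the limit within 1 cluster, and Slc41a1 fewer counts per detecting well. Genes that led cluster A also read lower in its double-deleted wells. Ednrb was at 860 and 454 CPM against 192 and 269 CPM, and Tub at 419 and 345 against 133 and 235. Plat was at 455 and 372 against 166 and 254, and Odc1 at 293 and 315 against 194 and 256, while Fxyd2 overlapped. Whether cluster A holds the same kind of cells in both genotypes was not tested.

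Co-detection of the 10 genes was described over their 45 pairs, at 10 counts and over wells of 2 plates. In all LECs of Tie1 Tie2 fl/fl, 43 of 45 pairs were found together more often than their shares give under independence, with a median ratio of 3.13. In Tie1 Tie2 iΔLEC 28 pairs had a value and 26 were above, with a median of 1.82. Within cluster A the medians were 1.13 and 1.08. At least 3 of the 10 genes at 10 counts were found in 14.8% and 20.4% of Tie1 Tie2 fl/fl wells and in 22.8% and 16.4% of Tie1 Tie2 iΔLEC wells. At least 5 of 10 at 1 count were found in 16.7% and 49.7% against 9.36% and 8.8%, a reading that depends on the table layout. In cluster A the mean number of the 10 genes at 10 counts was 4.67 and 5.10 in Tie1 Tie2 fl/fl, 3.63 and 2.83 in Tie1 Tie2 iΔLEC, and 5.18 to 5.45 in the 4 plates of the Tie1 strain.

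A list of 27 genes known from lymphatic valve development was read from the same fits. Over all LECs the double deletion called 2 of 27, against the same 1.13% of all genes, and the median log2 fold change of the list was -0.10. Fn1, the fibronectin of the valve matrix, was at 1038 and 1075 CPM in Tie1 Tie2 fl/fl and at 3480.5 and 3406 CPM in Tie1 Tie2 iΔLEC (1.72 ± 0.15, edgeR adjusted p = 0.00285). Efnb2, the ephrin ligand required for valve formation, was at 66.9 and 65.1 CPM and at 15.8 and 12.3 CPM (-2.21 ± 0.30, adjusted p = 0.0138, kept in 5 of 8 fits that leave out a plate). Both were also called in other LECs (2.11 and -2.59), and neither in valve-like wells, where 26 of 27 genes could be tested and 0 were called. The 4 largest changes otherwise were Foxc2 (-1.77, adjusted p = 0.32), Lama5 (-1.71, adjusted p = 0.106), Gata2 (-1.46, adjusted p = 0.055), and Acvrl1 (-1.04, adjusted p = 0.253). The Tie1 deletion called none of the 27.

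In the antibody experiment 4685 and 4331 barcodes were deposited, of which 5 are shared by both libraries. The treated library's title names it an antibody control, while its treatment label gives the Ang2 antibody, which was followed. After filters, 3438 IgG and 2963 Ang2 Ab cells were clustered without the 10 genes, and 1257 and 720 of them were LECs. Valve-like LECs were 244 cells with IgG (19.4% of LECs, 95% binomial interval 17.3 to 21.7). With Ang2 Ab they were 186 cells (25.8%, 22.7 to 29.2). Of all clustered cells they were 7.1% with IgG and 6.28% with Ang2 Ab, while other LECs were 29.5% and 18%. The direction of the valve-like share thus depends on the cells it is taken of. There is 1 library per treatment, so intervals cover counting error only and no test was made.

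Cldn11 in valve-like cells was at 1168 CPM of all UMIs with IgG and at 1065.5 with Ang2 Ab, a ratio of 0.912 (0.863 to 0.964). Net1 (649 and 527, ratio 0.812) and Gdf10 (635 and 519, ratio 0.818) were also lower. Slc41a1 (1559 and 2214, ratio 1.42), Neo1 (419 and 555, ratio 1.32), and Irx3 (86.6 and 117, ratio 1.35) were higher. The median ratio of the 6529 genes with at least 100 UMIs was 0.99. Counted from the highest ratio, Cldn11, Net1, and Gdf10 ranked 4563, 5765, and 5713 of these. Slc41a1, Neo1, and Irx3 ranked 237, 411, and 364. Fibin (0.957), Sbspon (0.999), Gjd3 (0.917), and Irx5 (1.18) had intervals that include 1. In the same cells the summed blood vascular markers (7 genes, none at 0) were at 116 and 220.3 CPM and the summed LEC markers (9 genes, none at 0) at 7806 and 6209 CPM, and their part in these ratios was not tested. None of the 10 changed 2-fold there, where 0.398% of 6529 genes with at least 100 UMIs were at least 2-fold higher and 0.168% at least 2-fold lower.

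In other LECs some ratios were larger. Fibin went from 13.4 to 72.8 CPM, a ratio of 5.42 (4.58 to 6.45), the ninth highest of 10119 genes. Neo1 went from 34.4 to 121 CPM, a ratio of 3.53 (3.15 to 3.95). These were the 2 of 10 genes at least 2-fold higher, against 1.21% of genes. Net1 went from 58.7 to 26.2 CPM (ratio 0.447, 0.38 to 0.524) and was the only 1 of the 10 with at least 100 UMIs that was 2-fold lower, against 1.2% of genes. Gdf10 (0.514), Cldn11 (0.622), and Sbspon (0.647, interval 0.405 to 1.01) had ratios under 1. In blood vascular cells the same genes went from 8.58 to 1.87 CPM (Gdf10), 13.7 to 2.06 CPM (Cldn11), and 6.54 to 0.749 CPM (Sbspon), beside 38.7 to 19.9, 39.3 to 24.5, and 5.94 to 3.85 CPM in other LECs. The IgG level of Sbspon in other LECs lay below that of blood vascular cells, and the part of such background in the Gdf10 and Cldn11 ratios was not tested. In other LECs the summed blood vascular markers were at 377 and 436 CPM and the summed LEC markers at 19610 and 17241 CPM. Slc41a1 was higher (1.40) but turned to 0.915 when cells with over 5% mitochondrial UMIs were left out.

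Shares of cells were compared after thinning to 4000 UMIs. In valve-like cells Cldn11 was detected in 87.7% with IgG and 85% with Ang2 Ab (unthinned 93% and 90.9%), and in blood vascular cells, which should lack it, in 1.92% and 1.07% (median depths of 10972.5 and 9482.5 UMIs in valve-like cells and 8920.5 and 7558.5 in blood vascular cells). Neo1 in other LECs went from 7.86% (6.25 to 9.72) to 18.8% (15.5 to 22.5) of cells, beside 4.9% and 5.27% in blood vascular cells. Fibin in other LECs went from 3.67% (2.59 to 5.05) to 10.3% (7.77 to 13.3), beside 0.577% and 0.78%. The blood vascular shares of both genes lay below those of other LECs in each library. Cldn11 in other LECs was detected in 12.8% and 7.71% of cells. Net1 was detected in 27.4% and 20.2% of blood vascular cells, more than in other LECs (15.5% and 10.3%). It was also at a higher level there, 111 and 88.2 CPM. Blood vascular cells thus give no background level for Net1, and the part of background in its share in other LECs was not tested.

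Pairs within valve-like cells again separated Irx3 from Fibin. Irx3 and Irx5 were found together in 23 IgG cells against 6.27 under independence, and in 13 Ang2 Ab cells against 4.51. Neo1 and Irx3 shared 34 cells against 15.1, and 26 against 13.5. Fibin and Irx3 shared 9 cells against 22.9, and 10 against 16.9, and Neo1 and Fibin 24 against 50.9, and 30 against 49. These pairs of genes leaned the same way in the plates, where Irx3, Irx5, and Neo1 were higher in cluster A and Fibin in cluster B.

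**Figure D5:**
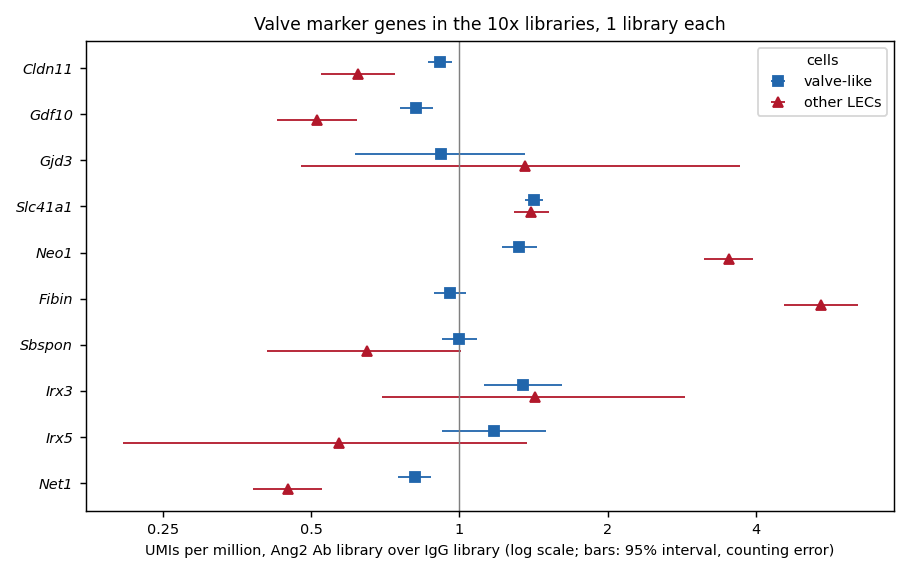
Ratio of CPM, Ang2 Ab library over IgG library (horizontal axis, log scale, bars are 95% intervals of counting error), for each valve gene in valve-like cells (squares) and other LECs (triangles). Fibin and Neo1 lie at 5.42 and 3.53 in other LECs. In valve-like cells Fibin lies at 0.957, with an interval that includes 1, and Neo1 at 1.32 (1.22 to 1.44).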

How the data were processed

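The files deposited by the authors hold unnormalized counts: reads for each gene in each well of 8 Smart-seq plates, and UMIs for each gene and barcode of both 10x libraries. The submitters' processing notes name Cell Ranger 2.1.1, TopHat2 2.1.1, SAMtools 0.1.18, Subread featureCounts, R 3.5.1, Seurat 4.0.6, and the build GRCm38 (mm10). Plate tables with symbols and those with Ensembl identifiers were joined on 42520 genes, of which 781 needed an older symbol and 41739 did not. The joined genes took 95.5% to 96.7% of all counts. Plates held 71309205 to 110741537 counts, with medians of 156106 to 276611 per well, and no pair of plates was identical.

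Wells with at least 1000 detected genes were clustered with scanpy 1.11.5 and leidenalg 0.10.2 (2000 variable genes, 30 components, 15 neighbours, resolution 1), with genes scaled within each plate and without the 10 valve genes, Tie1, and Tek. A marker was raised at 1.5-fold and in 10% of wells. Clusters with at least 4 raised markers of another cell type were set aside, and clusters with at least 5 raised valve genes were called valve-like. Droplet cells had at least 500 genes and at most 10% mitochondrial UMIs. Leaving out the 5% of cells with the highest Scrublet scores was an alternative.

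Counts were summed per plate and class and entered the quasi-likelihood test of edgeR 4.0.16 in R 4.3.3, with all 8 plates in 1 model, TMM scaling, the default low-count filter, and Benjamini-Hochberg adjustment over all genes. DESeq2 1.42.0 was an alternative. Detection used wells thinned to 50000 counts (2548 wells, which left out 193) and cells thinned to 4000 UMIs. Shares were compared by exact permutation over plates. Intervals in the droplet libraries and for the Irx5 ratio in the plates are 95% exact intervals. Like floors of 3 counts, they cover counting error only. The model code was checked on simulated counts. Tests outside R used scipy 1.17.1 in Python 3.11.15, with pandas 2.3.3 and numpy 2.4.6, and matplotlib 3.10.9 drew the plots.

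The genes and lists were chosen with earlier results of these data known. Named genes were the 10 valve genes, of 27 valve development genes those called in any contrast and the 4 with the largest other change, and the 8 genes with the highest correlation with the valve genes among 13923 detected in at least 5% of control wells. Coordinates are from GENCODE vM21.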

Additional observations from a re-analysis of the deposited data

Results flagged for a closer look

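Some effects differed between the deletions. For Cldn11 in all LECs the log2 effect of the double deletion minus that of the Tie1 deletion was -2.75 (edgeR adjusted p = 0.0148). That call was kept in 2 of 8 fits that leave out a plate and was lost with the replicate number as a block (0.0647). The fitted differences were -13.04 for Irx3 and -10.28 for Irx5 (edgeR adjusted p = 0.0443 and 0.0413). Both depend on the prior count because the double-deleted plates held 0 and 1 counts. Their calls were kept in 0 of 8 fits that leave out a plate and were lost with the block (0.19 and 0.137). The effects on the share of valve-like wells differed by -9.71 percentage points (exact permutation p = 0.0556, the smallest this design allows), a value of -4.27 when the genes called with the double deletion were left out of the clustering.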

How the results depend on the processing

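Numbers of genes called moved most with the tool and the filter. For the Tie1 deletion, DESeq2 and edgeR without a filter on low counts called 174 and 267 genes in all LECs, 163 and 251 in other LECs, and 156 and 9 in valve-like wells, against 0. For the double deletion they called 1015 and 1172 (against 225), 969 and 1070 (221), and 419 and 186 (9). For the average of both they called 888 and 1068 (183), 915 and 1033 (168), and 336 and 192 (9), and for the difference 432 and 612 (26). The difference gave 11 genes with the table layout as a term and 17 with no cluster removed. With cluster A only, added after seeing the data, valve-like calls were 5 for the double deletion and 3 for the average.

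Same-numbered plates of a strain share the table layout and have neighbouring plate labels, and both first plates of the Tie1 strain came from females. The labels name no shared animal, litter, or day, and deviations correlated at 0.111 and 0.0942 over 2 pairs per strain, so the pairing was not taken as given. With the replicate number as a block the double deletion called 182 genes in all LECs, 144 in other LECs, and 7 in valve-like wells, the average called 118, 107, and 5, and the difference 10. Of the 62 log2 fold changes named in the text, 9 lost their call with the block, all of them averages of or differences between the deletions, and none of the called double-deletion fold changes did.

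Leaving out 1 plate gave 80 to 212, 66 to 207, and 8 to 15 genes for the double deletion in all LECs, other LECs, and valve-like wells, 57 to 146, 60 to 141, and 5 to 13 for the average, 2 to 16 for the difference, and 0 to 1 for the Tie1 deletion in other LECs. The share of valve-like wells changed by 5.27 to 5.87 points with the Tie1 deletion, by -5.13 to -3.15 with the double deletion, by 0.218 to 1.21 over both, and by -10.7 to -8.72 for the difference. It turned to 0.159 for the double deletion without the called genes, and to -3.39 over both with scaling over all plates. Wells with at least 5 of the 10 genes changed by -40.6 to -7.59 points with the double deletion and by -17.6 to 34.5 with the Tie1 deletion. For the double deletion the change was -51.6 without thinning and 2.04 for 3 of 10 genes at 10 counts, the latter added after seeing the data.

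Genes detected in a smaller share of wells after the Tie1 deletion numbered 1 when thinned to 20000 counts. Those with a larger share numbered 2 at 3 counts and 4 at 10 counts, and 0 for the double deletion without thinning. Over the alternatives for those 62 fold changes, 761 values kept direction and side of the threshold, 45 passed it, 97 lost it, and 9 changed sign, the last each without 1 plate. Other fits not described above also changed sign, such as Fibin in valve-like wells for the average (-1.05 to 0.18). With the Tie1 deletion in all LECs, Fibin then ranged from -0.19 to 0.15 (also 0.13), Irx3 from -0.031 to 1.69, Irx5 from -0.65 to 0.16, and Net1 from -0.36 to 0.031. With the double deletion, Gdf10 ranged from -0.39 to 0.57 in all LECs and from -0.99 to 0.063 in valve-like wells, and Slc41a1 in other LECs from -0.47 to 0.99 (also -0.34). The antibody ratio of Slc41a1 in other LECs was 0.915 at 5% mitochondrial UMIs. With only the 4 plates of its strain the Efnb2 call was lost (adjusted p = 0.0539). The causes were not tested.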
